A study of Mus musculus with 3 samples.

Results

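The Mediator complex is a large co-activator that links DNA-bound transcription factors to RNA polymerase II, and Med12 belongs to its kinase module. RNA polymerase II (RNAP2) is loaded at promoters and is also found at many active enhancers, regulatory sequences that can lie far from the gene they control. In the limb bud, enhancers of this kind act on genes for patterning factors from large stretches of noncoding sequence. Med12 peaks that lie between genes and carry no RNAP2 peak are described here.

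ChIP-seq, in which DNA bound to a protein is recovered with an antibody and sequenced, was performed on wild-type distal forelimbs of E12.5 mouse embryos, the part of the limb bud that forms the hand plate. The cells were a mixture of the tissues of the dissected limb. There was 1 library made with an antibody to RNAP2, 1 with an antibody to Med12 and 1 from input chromatin, for which no peak list was analysed. The design text of the series gives E11.5, and the E12.5 of the sample labels was used. There were no replicates, so that no value below has a replicate error, and intervals in parentheses are 95% Wilson intervals, which cover counting error only and treat neighbouring regions as independent. The score of a peak is the negative log10 of the p-value from the peak caller multiplied by 10. Scores depend on the depth of the library and the width of the peak and were therefore ranked only within a list. The depth at a peak cannot be given from the peak lists.

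The Med12 list held 10634 peaks and the RNAP2 list 20479. A Med12 peak was retained when it shared no base with an RNAP2 peak, did not touch the 1 kb on either side of an annotated transcript start and overlapped no protein-coding gene (mm9, GENCODE vM1). The regions were thus chosen by the measured absence of an RNAP2 peak and by the position of the Med12 peak, and neither is a result. This gave 3493 regions, or 32.8% of the Med12 list (32.0 to 33.7%). Of all Med12 peaks, 6095 or 57.3% overlapped no RNAP2 peak, and among the 5022 intergenic Med12 peaks away from starts this share was 69.6% (68.3 to 70.8%). The regions were set beside the other 1529 peaks of this intergenic set, which overlapped RNAP2, and beside 2286 Med12 peaks without RNAP2 that lay inside protein-coding genes. The other Med12 peaks were 2067 at starts and 1259 inside genes with RNAP2.

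Sequences from the centre of 11 regions are printed to show what these sites are made of, each as 200 bp of the + strand of mm9. The first 5 are the highest-scoring regions with less than 50% multi-copy sequence, which is defined below. Capitals mark matches, on either strand, to the 19 motifs counted below.
E330021D16Rik to Gm6728, chr6:136417198-136417397: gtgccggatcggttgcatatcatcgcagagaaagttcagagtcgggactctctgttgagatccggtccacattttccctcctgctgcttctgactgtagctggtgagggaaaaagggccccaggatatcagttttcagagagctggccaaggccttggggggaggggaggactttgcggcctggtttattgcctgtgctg
Trps1 to Eif3h, chr15:51552797-51552996: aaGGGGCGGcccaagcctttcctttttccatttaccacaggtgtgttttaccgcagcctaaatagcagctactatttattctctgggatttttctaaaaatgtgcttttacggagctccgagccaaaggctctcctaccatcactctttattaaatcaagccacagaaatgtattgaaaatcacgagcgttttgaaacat
Slc30a10 to Lyplal1, chr1:187739788-187739987: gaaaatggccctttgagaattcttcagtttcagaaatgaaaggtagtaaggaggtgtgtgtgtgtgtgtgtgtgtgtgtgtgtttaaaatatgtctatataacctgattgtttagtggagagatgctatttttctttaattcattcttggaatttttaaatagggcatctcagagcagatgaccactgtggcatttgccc
Alcam to Zpld1, chr16:52989253-52989452: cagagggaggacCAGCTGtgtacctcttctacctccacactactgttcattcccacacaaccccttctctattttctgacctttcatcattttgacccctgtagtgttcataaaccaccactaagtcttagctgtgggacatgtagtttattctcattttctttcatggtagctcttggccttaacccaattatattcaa
Gbe1 to Robo1, chr16:72534482-72534681: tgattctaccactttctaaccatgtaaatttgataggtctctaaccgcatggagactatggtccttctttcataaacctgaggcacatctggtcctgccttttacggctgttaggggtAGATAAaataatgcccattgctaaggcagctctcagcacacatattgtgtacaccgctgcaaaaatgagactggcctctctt

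The next 3 are the highest-scoring such regions beside a limb transcription factor gene (Tbx3), a limb signalling gene (Fgf9) and a cartilage and tendon gene (Osr1), with scores of 150, 124 and 166. They were 88329, 38745 and 94542 bp from the nearest RNAP2 peak.
Med13l to Tbx3, chr5:119800704-119800903: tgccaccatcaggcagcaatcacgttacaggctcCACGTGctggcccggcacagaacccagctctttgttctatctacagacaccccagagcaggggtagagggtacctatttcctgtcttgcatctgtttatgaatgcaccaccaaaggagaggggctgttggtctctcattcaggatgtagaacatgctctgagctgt
Fgf9 to Rpl13-ps3, chr14:59485533-59485732: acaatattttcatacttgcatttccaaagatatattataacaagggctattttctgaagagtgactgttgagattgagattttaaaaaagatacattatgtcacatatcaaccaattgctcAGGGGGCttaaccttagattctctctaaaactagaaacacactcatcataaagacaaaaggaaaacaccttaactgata
Ttc32 to Osr1, chr12:9486058-9486257: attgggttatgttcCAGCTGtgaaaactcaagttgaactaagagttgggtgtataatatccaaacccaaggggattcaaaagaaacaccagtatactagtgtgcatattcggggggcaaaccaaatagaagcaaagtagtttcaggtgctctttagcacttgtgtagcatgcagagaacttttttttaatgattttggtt

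The last 3 hold the letters TCGTAAA, a sequence of the type bound by the group 13 Hox proteins. They were chosen after the motif counts were seen and have scores of 159, 117 and 97.2. The region between Mtx2 and Hnrnpa3 lies beside the HoxD cluster.
Mdfic to Tcfec, chr6:16653363-16653562: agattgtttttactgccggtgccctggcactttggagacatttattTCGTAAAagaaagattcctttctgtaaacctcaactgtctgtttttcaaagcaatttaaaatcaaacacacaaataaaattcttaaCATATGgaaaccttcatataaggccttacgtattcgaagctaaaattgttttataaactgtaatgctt
Mtx2 to Hnrnpa3, chr2:74761496-74761695: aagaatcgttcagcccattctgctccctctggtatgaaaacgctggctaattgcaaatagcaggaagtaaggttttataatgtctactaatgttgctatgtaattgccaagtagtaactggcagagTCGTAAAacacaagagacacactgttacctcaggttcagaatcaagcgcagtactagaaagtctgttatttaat
Phlda1 to Krr1, chr10:110990844-110991043: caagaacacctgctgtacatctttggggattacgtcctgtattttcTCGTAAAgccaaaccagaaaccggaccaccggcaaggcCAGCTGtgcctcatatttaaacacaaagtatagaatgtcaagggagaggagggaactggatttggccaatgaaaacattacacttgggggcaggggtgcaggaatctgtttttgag

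The regions were mostly of low score. Their scores ran from 40.0 to 421 with a median of 50.5, and the quartiles were 44.2 and 61.7. The intergenic Med12 peaks with RNAP2 had a median of 94.1 and reached 3100, and the intragenic peaks without RNAP2 had a median of 49.2. A score under 50 was found in 1696 regions, 48.6% (46.9 to 50.2%), against 12.4% (10.8 to 14.1%) of intergenic peaks with RNAP2. The lists reach down to a score of 40, although a p-value of 1e-05, a score of 50, is the threshold stated in the methods. Only 156 regions, 4.47% (3.83 to 5.20%), had a score of 100 or more, a level reached by 47.2% (44.7 to 49.7%) of the intergenic peaks with RNAP2. The regions had a median width of 898 bp, and the peaks with RNAP2 one of 1101 bp.

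The share of intergenic Med12 peaks that lacked RNAP2 fell with the Med12 score. It was 90.0% (88.5 to 91.2%) of 1885 peaks with a score under 50 and 72.6% (70.8 to 74.4%) of 2259 peaks from 50 to 100. Among the 878 peaks with a score of 100 or more, it was 17.8% (15.4 to 20.4%). The absence of RNAP2 is the criterion that chose the regions, so these shares describe the selection. The regions were also wider at higher scores, with median widths of 796, 960 and 1158 bp in the same order. How far width affects the overlap with RNAP2 was not tested.

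**Figure D1:**
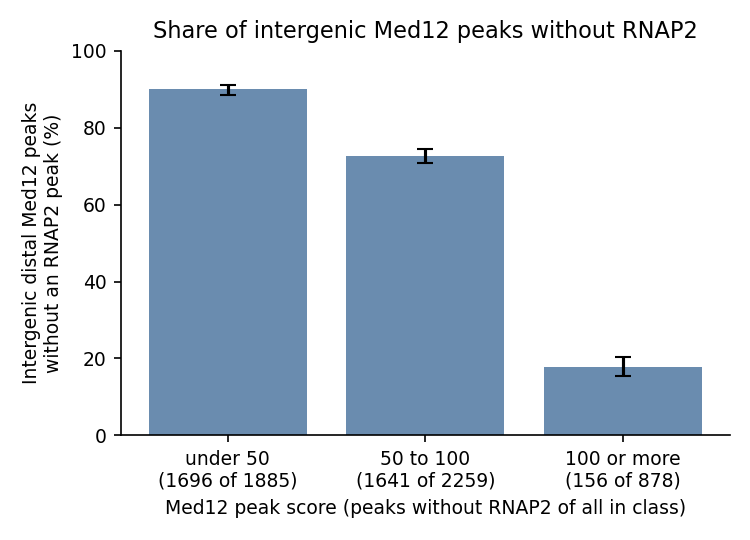
The bars show the percentage of intergenic distal Med12 peaks that overlapped no RNAP2 peak in 3 classes of Med12 score, with 95% Wilson intervals. The share went from 90.0% under a score of 50 to 17.8% at 100 or more.

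The region with the highest score, 421, lay between E330021D16Rik and Gm6728 at chr6:136416869-136417727 and ranked 120th in the whole Med12 list. Its nearest RNAP2 peak was 570 bp away and its nearest protein-coding start, that of Gm6728, 20933 bp away. The next was 830590 bp from Trps1, a GATA-type zinc finger repressor of cartilage differentiation, and 64487 bp from Eif3h, with a score of 226 and an RNAP2 peak at 3177 bp. Regions with scores of 219, 219 and 214 lay between Slc30a10 and Lyplal1, between Alcam, a cell adhesion molecule, and Zpld1, and between Gbe1 and Robo1, a receptor of Slit guidance proteins. These were 11032, 53238 and 127716 bp from RNAP2. A region between Psmd7 and Zfhx3, a homeobox and zinc finger factor, scored 212, and a region between 5930403N24Rik and the laminin gene Lama4 scored 195. The latter was 404978 bp from RNAP2. Among the nearest protein-coding starts of the 10 highest-scoring regions, those of Eif3h, Lyplal1, Alcam, Robo1 and Psmd7 had an RNAP2 peak within 1 kb, while those of Gm6728, Gm3395, Gm3763, Gm5428 and Lama4 did not.

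Sequence that occurs more than once in the genome was frequent in 3 of these 10 regions. The 300 bp at the centre of the region between Gm3376 and Gm3395 on chromosome Y (score 220) and of that between Gm3763 and Mycs on chromosome X (score 196) consisted of such sequence over 100% of their bases. The region between Gm5428 and Osbpl8 (score 195) had 42.3%.

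The distance to the nearest RNAP2 peak varied widely. The median was 79679 bp, the quartiles were 24004 and 225068 bp, and the range was 3 to 3350095 bp. An RNAP2 peak lay within 1 kb of 69 regions, 1.98% (1.56 to 2.49%), within 10 kb of 449, 12.9% (11.8 to 14.0%), and within 100 kb of 1930, 55.3% (53.6 to 56.9%). For 132 regions, 3.78% (3.20 to 4.46%), there was none within 1 Mb. As a reference, the genome was laid out in all 5048503 stretches of 300 bp that met the same rule on position and overlapped no RNAP2 peak. Of these stretches, 7.98% were within 10 kb of an RNAP2 peak and 44.4% within 100 kb, and their median distance was 126173 bp. At the median, the regions were thus nearer to RNAP2 than these stretches, and farther than the intragenic Med12 peaks without RNAP2, which had a median of 37176 bp. The stretches were not limited to sequence in which a peak can be called. They include chromosome X, with 0.370 regions per Mb against 1.47 to 2.88 on the autosomes. At 300 bp they are also shorter than the regions, whose median width was 898 bp.

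**Figure D2:**
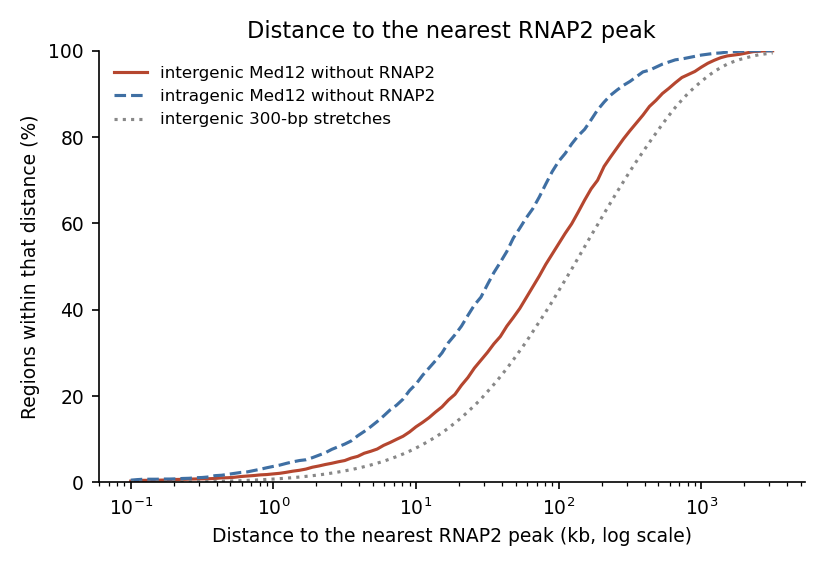
The lines show the cumulative percentage of regions within a given distance (kb, log scale) of the nearest RNAP2 peak for intergenic Med12 peaks without RNAP2, intragenic Med12 peaks without RNAP2 and intergenic 300-bp stretches. At 10 kb they stand at 12.9%, 22.8% and 7.98%.

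The following are the members and peaks nearest to the limits of the rule, picked for that. Between Kif2a and 3830408C21Rik, Mmadhc and Rnd3, and Hoxa13 and Evx1, a region ended 3, 14 and 17 bp from an RNAP2 peak. The excluded peaks between Cxcr7 and Cops8, Tas2r134 and Rbm43, and Dapk2 and Herc1 shared 5, 7 and 16 bases with one. The retained regions nearest to a start were 1002 bp (Myo5a to Myo5c), 1007 bp (Fam60a to Dennd5b) and 1011 bp (Mtx2 to Hnrnpa3) away, and the nearest excluded peaks were 992, 980 and 935 bp away. At the other extreme, a region between Tgif2lx1 and Pabpc5 on chromosome X was 3350095 bp from any RNAP2 peak, 3 regions between the protocadherin gene Pcdh7 and G6pd2 were 2681083, 2606822 and 2596772 bp away, and 1 between Ncam2 and Mrpl39 was 2473560 bp away.

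Protein-coding starts were farther from these regions, at the median, than from intergenic sequence in general. The median distance to a protein-coding start was 130425 bp, against 104111 bp for the stretches and 100771 bp for intergenic Med12 peaks with RNAP2. A start lay within 10 kb of 292 regions, 8.36% (7.49 to 9.32%), against 10.4% of stretches. No start was found within 500 kb of 524 regions, 15.0% (13.9 to 16.2%). This share was 14.9% for stretches and 5.76% (4.70 to 7.04%) for the peaks with RNAP2. Counting noncoding transcripts too, the median distance to a start was 55658 bp, and 117 regions, 3.35% (2.80 to 4.00%), overlapped an annotated noncoding gene.

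The nearest protein-coding start carried an RNAP2 peak within 1 kb for 1439 regions, 41.2% (39.6 to 42.8%). The rule did not use this state of the gene. It was 33.3% for the stretches, 37.1% (35.2 to 39.1%) for intragenic Med12 peaks without RNAP2 and 52.7% (50.2 to 55.2%) for intergenic peaks with RNAP2. Over all protein-coding genes, 41.9% had RNAP2 at any of their starts. That value counts each gene once and is not the same measure as the single nearest start of a region. By the score of the region, the share was 38.7% (36.4 to 41.0%) under 50, 42.9% (40.5 to 45.3%) from 50 to 100 and 50.6% (42.9 to 58.4%) at 100 or more. The intervals of neighbouring classes overlapped, and those of the lowest and the highest class did not. These Wilson intervals treat regions that share a nearest start as independent. The sequences between Atp5g3 and Lnp and between Mtx2 and Hnrnpa3, beside HoxD, held 6 and 2 regions scoring 100 or more. Without the regions of these sequences the share over all regions was 40.3%, and the classes were not recomputed. In the class under 50, intergenic peaks with RNAP2 had 48.1% (41.1 to 55.2%), and from 50 to 100 they had 51.9% (48.0 to 55.9%). At 100 or more they had 54.6% (50.9 to 58.2%). The interval of this highest class overlapped that of the regions, and those of the lower classes did not.

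Distance to the start did not order this share. It was 36.3% (33.4 to 39.3%) for regions within 50 kb of the start, 44.1% (41.2 to 47.0%) from 50 to 200 kb, 45.6% (42.2 to 48.9%) from 200 to 500 kb and 37.6% (33.6 to 41.8%) beyond 500 kb. In the stretches it was 31.4%, 35.1%, 34.6% and 32.7% in the same order. A Med12 peak at the nearest start was rarer, with 9.79% (8.85 to 10.8%) of regions, 7.14% of stretches and 16.9% (15.1 to 18.8%) of the intergenic peaks with RNAP2.

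Other Med12 peaks lay at a median of 72047 bp. Another Med12 peak was within 20 kb of 767 regions, 22.0% (20.6 to 23.4%), against 39.8% (37.3 to 42.2%) of intergenic peaks with RNAP2. For these 767, the nearest other Med12 peak was a region of the same kind in 60.1% (56.6 to 63.5%) and carried RNAP2 in 36.1% (32.8 to 39.6%). Regions linked by gaps of at most 20 kb formed 2994 singletons, 206 pairs and 14 runs of 3. There was 1 run of 4, between Slc7a15 and Pum2, 1 of 7 and 1 of 34. These runs were examined after their sizes were seen.

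The run of 34 lay between Atp5g3, which encodes a subunit of ATP synthase, and Lnp, on the Evx2 and Hoxd13 side of the HoxD cluster on chromosome 2. Hoxd13 and its neighbours are the Hox genes of the digit field. The run spanned chr2:74130145-74311734, which is 182 kb, and its regions covered 23.2% of the bases. Scores of its 34 regions ran from 40.8 to 177 with a median of 64.1. Of them, 7 were under 50 and 6 were 100 or more. In this stretch 37 Med12 peaks were called and 3 overlapped RNAP2. The 5 RNAP2 peaks there had scores of 40.0 to 198, and the regions were 193 to 27034 bp from one, with a median of 8726 bp. The centre of 5 regions was over 50% multi-copy.

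**Figure D3:**
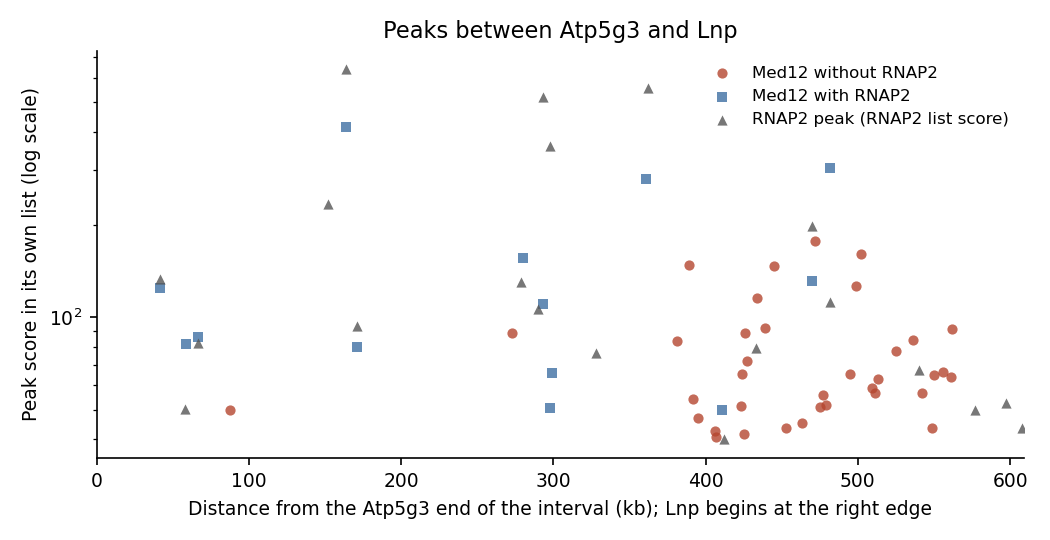
Peak scores (log scale, each in its own list) are plotted against the distance in kb from the Atp5g3 end of the interval to Lnp, for Med12 peaks without RNAP2, Med12 peaks with RNAP2 and RNAP2 peaks. Of the 36 Med12 peaks without RNAP2, 34 lie in the run of 182 kb on the Lnp side.

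The run of 7 lay on the other side of the HoxD cluster, between Mtx2 and Hnrnpa3, at chr2:74761055-74809875. Its scores were 117, 56.4, 57.4, 182, 85.9, 48.4 and 40.6 in the order of the chromosome. There was no RNAP2 peak within it, and the regions were 28188 to 49587 bp from the nearest. Its first region is the one printed above with TCGTAAA. Between Hoxa13, expressed in the hand plate, and Evx1 a run of 3 had scores of 49.4, 83.5 and 108 and lay 1476, 1114 and 17 bp from RNAP2. The 2 other Med12 peaks of this interval carried RNAP2. The starts of Hoxd10, Hoxd11, Hoxd12, Hoxd13, Evx2, Lnp, Atp5g3, Mtx2, Hoxa13 and Evx1 all had RNAP2, and among them that of Lnp alone had Med12 within 1 kb. With a gap of 10 kb the largest runs had 14 and 8 regions, both in the sequence from Atp5g3 to Lnp, and with 50 kb they had 34 and 11.

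The genome was divided at protein-coding genes into 19833 intergenic intervals, of which 1807 held at least 1 region and 1170 exactly 1. Intervals with a region had a median length of 215818 bp, against 17643 bp for all intervals. The number of regions per Mb was 1.44 in intervals under 50 kb, 1.99 from 50 to 200 kb, 2.25 from 200 to 500 kb, 2.77 from 500 to 1000 kb and 2.02 above. The intervals contained no RNAP2 peak for 1241 regions, 35.5%, and a Med12 peak with RNAP2 for 1466, 42.0%. The 25 intervals with 10 or more held 333 regions, 9.53%.

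The interval from Atp5g3 to Lnp held 36 regions in 609 kb, or 59.1 per Mb, with 13 Med12 peaks that had RNAP2. The interval with the next highest count, from Zeb2, a repressor of epithelial genes, to the activin receptor gene Acvr2a, held 20 in 3697 kb, or 5.41 per Mb. The interval from Nudt12 to Efna5 held 18 and those from Ttll7 to Lphn2 and from 4930555F03Rik to Aga 16 each. The interval from Mtx2 to Hnrnpa3 held 15 in 781 kb, or 19.2 per Mb. The others of the 10 highest counts were Bcl11a to 5730522E02Rik with 14, Nmbr to Cited2 with 13, and Fat4 to 1700017G19Rik and Gm1840 to Efnb2 with 12 each. These 8 intervals other than the pair beside HoxD held 4.01 to 9.80 regions per Mb.

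**Figure D4:**
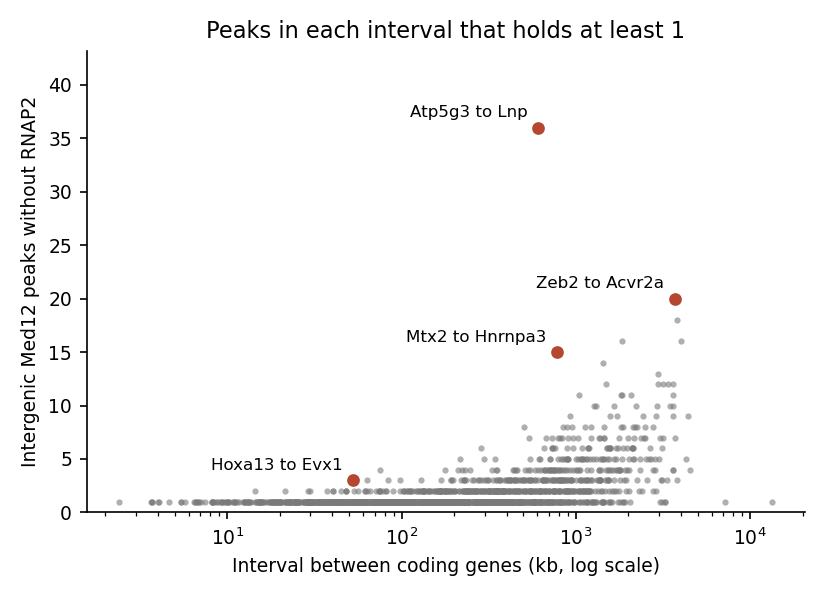
Each point is an intergenic interval that holds at least 1 Med12 peak without RNAP2, with its length in kb (log scale) and its number of such peaks. The interval from Atp5g3 to Lnp stands at 36 peaks in 609 kb, and Zeb2 to Acvr2a at 20 in 3697 kb.

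Of 21168 protein-coding genes that border an interval, 3178 or 15.0% bordered one with a region. Genes of the lists for limb development had longer bordering intervals than all genes at the median, and the differences between lists were not tested. Among 42 limb transcription factor genes it was 19, 45.2% (31.2 to 60.1%), among 43 limb signalling genes 21, 48.8% (34.6 to 63.2%), and among 25 cartilage and tendon genes 13, 52.0% (33.5 to 70.0%). The median bordering lengths were 242, 247 and 216 kb, against 41.7 kb for all genes. Per Mb of bordering sequence, these lists had 3.31, 3.28 and 3.57 regions and all genes 2.15. An RNAP2 peak was at a start of 83.3%, 69.8% and 63.0% of the genes of these lists, in the same order, against 41.9% of all protein-coding genes.

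Lists for other tissues and lineages were counted in the same way. The dissected limb is a mixture of tissues, so these counts do not check its label. Muscle genes bordered a region in 6 of 14 cases, 42.9% (21.4 to 67.4%), and neural genes in 8 of 19, 42.1% (23.1 to 63.7%). Endothelial and blood genes did so in 6 of 18 cases, 33.3% (16.3 to 56.3%), liver and gut genes in 4 of 18, 22.2% (9.0 to 45.2%), and ectoderm genes in 1 of 14, 7.14% (1.27 to 31.5%). The intervals of all these lists but ectoderm overlapped those of the 3 limb lists. That of ectoderm overlapped the interval of the limb transcription factors alone. Per Mb of bordering sequence these lists had 2.27, 2.42, 2.93, 1.32 and 1.08 regions, in the same order, and their median bordering lengths were 189, 198, 111, 102 and 62.0 kb. RNAP2 was at a start in 57.1%, 50.0%, 44.4%, 38.9% and 7.14% of these lists, in the order of muscle, neural, endothelial and blood, liver and gut, and ectoderm. The shares also differed with the length of the bordering sequence. For all genes the share was 2.54% under 50 kb, 15.0% from 50 to 200 kb, 44.4% from 200 to 500 kb, 72.2% from 500 to 1000 kb and 86.4% above. In the same classes, limb transcription factor genes bordered a region in 0 of 10, 3 of 9, 3 of 9, 7 of 8 and 6 of 6 cases. Limb signalling genes did so in 1 of 9, 1 of 10, 12 of 15, 5 of 7 and 2 of 2 cases, and cartilage and tendon genes in 1 of 5, 1 of 6, 5 of 7, 4 of 5 and 2 of 2. The limb transcription factor and limb signalling lists were thus below or near the share of all genes in some classes and above it in others. The cartilage and tendon list was near that share from 50 to 200 kb and above it in the other classes. Each list had few genes in each class, and no difference was tested.

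Among the limb transcription factors, Gli3, the repressor and activator of the Hedgehog pathway, and Hand2, which acts upstream of Shh in the posterior bud, each had 7 regions in their bordering intervals. Their highest scores were 97.1 and 119. Tbx3, a repressor of the T-box family, had 6 with a top score of 150, and Tbx15 had 4 with 61.2. All of these had RNAP2 at a start. Named after their values were seen, Hoxd10 to Hoxd13, Msx1, Msx2, Prrx1 and Twist1 had no region in their bordering intervals. For Hoxd10 to Hoxd13 these intervals were short, with 3.76, 5.03, 5.01 and 11.8 kb in total. The run of 34 lies beyond Evx2 and Lnp and is not counted for Hoxd13. For Msx1, Msx2, Prrx1 and Twist1 the lengths were 295, 142, 231 and 116 kb, and 4, 2, 1 and 2 Med12 peaks with RNAP2 lay there. The intervals of Hoxd13 held 2 such peaks, and those of Hoxd10 to Hoxd12 held none.

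Of the limb signalling genes, Fgf10, the mesenchymal signal to the apical ridge, and Spry2, a feedback inhibitor of FGF signalling, had 5 regions each with top scores of 63.3 and 65.3. Fgf9 had 4 with a top score of 124. Bmp2, the retinoic acid-degrading enzyme gene Cyp26b1, the Notch ligand gene Jag1 and the R-spondin receptor gene Lgr5 had 3 each, and of these 7 genes only Lgr5 lacked RNAP2 at a start. Shh, Grem1, Fgf8 and Bmp4, also named after their values were seen, bordered none, with bordering intervals of 109, 47.1, 81.3 and 370 kb in total. The intervals of Bmp4 held 3 Med12 peaks with RNAP2, and those of Shh, Grem1 and Fgf8 held none. For the 2 genes with large intervals Hhip and Sfrp2, which also bordered no region, 5 and 6 such peaks lay there.

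In the cartilage and tendon list, Osr1, a zinc finger factor of connective tissue, had 8 regions with a top score of 166, Sox9, the master factor of cartilage, had 4 with 81.6, and Sox5 and Sox6, its partners, had 3 each with 72.3 and 49.8. Among the other lists, the highest counts were Ets1 with 10, Mef2c with 7, Pou3f2 with 5, Nr5a2 with 4 and Sp8 with 2, and the last of these genes codes for a factor of the limb ectoderm. The starts of Mef2c, Nr5a2 and Sp8 had no RNAP2.

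Chromosome X held 45 regions, or 0.370 per Mb of its intergenic sequence, and chromosome Y 3. On the autosomes the density ran from 1.47 on chromosome 7 to 2.88 on chromosome 2. Chromosome X had only 95 Med12 peaks of any kind, and the regions were 47.4% of these, against 32.8% of the whole list. On chromosome Y all 3 Med12 peaks were such regions. Multi-copy sequence made up the whole centre of the highest-scoring regions of both sex chromosomes, as given above.

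The sequences were described in the 300 bp at each peak's centre. The median GC content was 39.3%, against 40.7% in the stretches, 43.3% in intergenic peaks with RNAP2 and 40.3% in intragenic peaks without RNAP2. The ratio of observed to expected CpG had a median of 0.142, against 0.259 and 0.170 in the latter pair. Multi-copy sequence was measured as the bases covered by 25-base words that occur more than once in mm9. Over 50% of the window was multi-copy in 532 regions, 15.2% (14.1 to 16.5%), in 3.14% (2.38 to 4.14%) of intergenic peaks with RNAP2 and in 8.49% (7.41 to 9.70%) of intragenic peaks without RNAP2. Over the whole Med12 list it was 8.59% (8.07 to 9.13%). It was not measured in the stretches, so that no value for intergenic sequence in general can be set beside it. In the regions, the share was 15.3% (13.7 to 17.1%) under a score of 50, 15.5% (13.8 to 17.3%) from 50 to 100 and 11.5% (7.42 to 17.5%) at 100 or more, with overlapping intervals.

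Motifs were counted as exact letters on both strands, as a description of these letters and not of sites. The share of regions with a motif was set beside the share in stretches weighted to the same GC content. The letters TCGTAAA of the HOX13 type were in 37 regions, 1.06% (0.769 to 1.46%), and in 0.442% of stretches, a ratio of 2.39. They were in 1.96% (1.38 to 2.79%) of intergenic peaks with RNAP2. The SP/KLF letters GGGGCGG were in 1.17% (0.866 to 1.59%) of regions and 0.674% of stretches, and the CTCF core AGGGGGC in 2.52% (2.05 to 3.09%) and 1.72%. The E-box CAGCTG was in 12.1% (11.1 to 13.3%) and 8.66%, and in 20.7% (18.8 to 22.8%) of peaks with RNAP2. The TEAD letters ACATTCC were in 4.78% (4.12 to 5.54%) and 4.02%, and the RUNX letters TGTGGTT in 8.07% (7.22 to 9.02%) and 6.99%. For all of these the interval lay above the stretches. None of these letters was particular to the regions. In the order given, they were in 1.34%, 6.98%, 5.14%, 14.9%, 5.17% and 7.18% of all Med12 peaks. In intragenic peaks without RNAP2 they were in 1.09%, 1.05%, 2.58%, 14.0%, 4.24% and 8.18%.

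Other letters were rarer in the regions than in the stretches. The YY1 letters AAGATGGC were in 1.35% (1.01 to 1.78%) of regions and 2.53% of stretches, the SOX letters ACAATGG in 4.49% (3.86 to 5.23%) and 5.76%, and the GATA letters AGATAA in 19.0% (17.7 to 20.3%) and 21.3%. The E-box CATATG was in 8.90% (8.00 to 9.89%) and 9.99%. The homeodomain letters TAATTA were in 436 regions (11.4 to 13.6%) and 12.1% of stretches, and for these and the AP-1 letters TGANTCA, the TCF/LEF letters CTTTGAT, the MEIS letters CTGTCA, the GLI letters TGGGTGGTC, the ETS letters CCGGAAG, the CRE letters TGACGTCA, the octamer ATGCAAAT and the E-box CACGTG the interval included the value of the stretches.

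**Figure D5:**
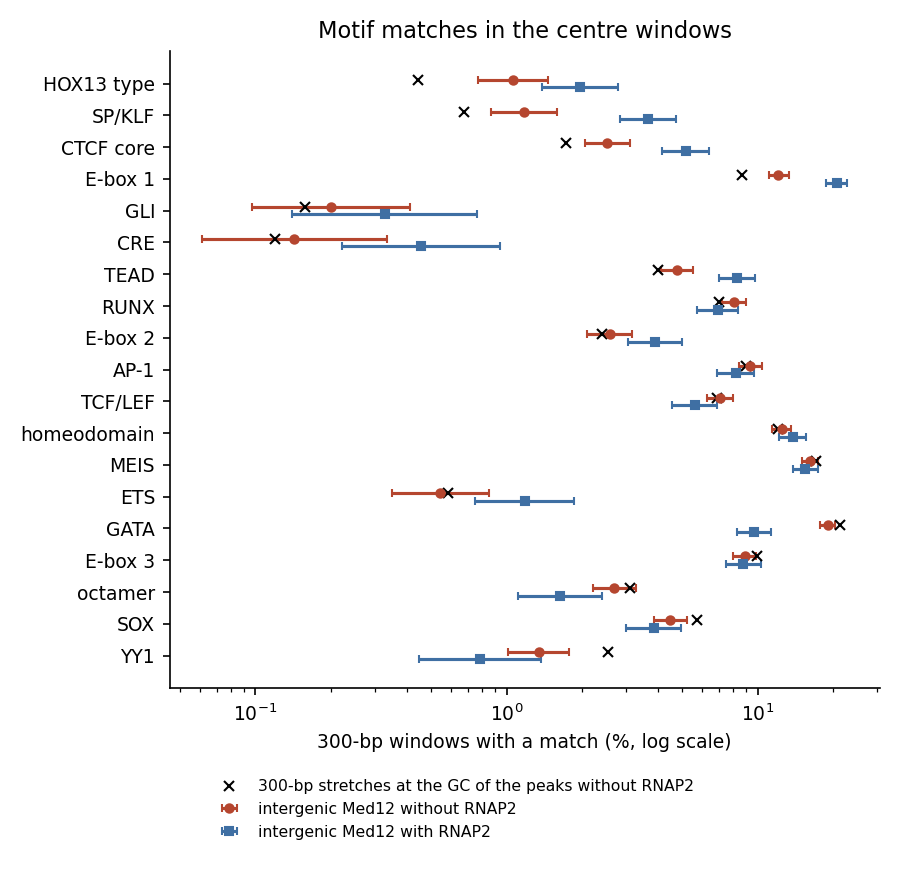
Points show the percentage of 300-bp windows (log scale) with each motif for intergenic Med12 peaks without and with RNAP2, with 95% Wilson intervals, and crosses show stretches at the GC of the former. E-box 1 has the letters CAGCTG. E-box 2 has instead the letters CACGTG. E-box 3 stands for the remaining form given in the text, and the motifs are ordered by the ratio to the stretches, from YY1 at 0.531 to the HOX13 type at 2.39.

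Without a motif in mind, 7-letter words were ranked on odd-numbered chromosomes by the ratio of their share in the regions to that in the stretches, and 12 of 5460 words were then described on even-numbered chromosomes and X, which the ranking did not use. There, GTTAAAC was in 72 of 1824 regions, 3.95% (3.15 to 4.94%), and in 2.29% of stretches of the same GC, a ratio of 1.73. CGTTAAA had 1.98 and CGTAAAA, which overlaps the HOX13 type letters, had 1.87, with 1.10% (0.711 to 1.69%) of regions against 0.587%. GCCTAAA had 1.000, ATACGTG 1.05 and AATACGT 0.771, so that the highest ratios of the odd-numbered chromosomes did not all recur. Over all chromosomes, TCGTAAA ranked 72nd of 8192 words and 9th of the 2456 with a single CpG, whose median ratio was 1.13.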

How the data were processed

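Per the methods and the submitters' processing notes, reads without their first base were aligned to mm9 by Bowtie. Peaks came from non-redundant reads, for each library, by MACS 1.4.1 (bandwidth 250, enrichment range 7 to 30, p-value threshold 1e-05). The settings do not name the input as control. The authors deposited a score per peak, the negative log10 of a p-value multiplied by 10. No read counts were used, so the depth behind a peak is unknown. No test was possible with 1 library per antibody.

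Overlaps of at least 1 bp and distances were computed with Python 3.11.15, NumPy 2.4.6 and SciPy 1.17.1, after checks on simulated data, and drawn with matplotlib 3.10.9. Sequence was read from mm9 (samtools 1.23.1). The reference has no repeat masking, so 25-base words with more than 1 copy replaced the planned repeat-masked share. Gene lists (198 genes in 8 lists), motifs, regions and alternatives were chosen with earlier results of these data known.

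Named were the 10 highest-scoring regions, the 5 farthest from RNAP2, the 10 intervals with the most regions, up to 5 genes per list, and those nearest each limit of the rule. The runs, the HoxD detail and the TCGTAAA sequences were chosen after their values were seen.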

Additional observations from a re-analysis of the deposited data

How the results depend on the processing

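Alternatives were 10 planned and 3 added after the data were seen. A Med12 score of at least 50 left 1797 regions (26.4% of the list), bordered by 2053 genes, with a median score of 61.2, a median RNAP2 distance of 71573 bp, 14.6% within 10 kb of RNAP2 and RNAP2 at the nearest start for 43.6%. A score of at least 100 left 156 (7.93%), bordered by 277 genes, with a median score of 122, distances of 43995 bp to RNAP2 and 142029 bp to a protein-coding start, 19.2% within 10 kb, RNAP2 at the start for 50.6%, a GC content of 40.8% and 11.5% of windows over 50% multi-copy. With RNAP2 peaks of at least 100 alone, the regions were 38.0% of the list, with a median score of 51.9, a distance of 149742 bp, 7.96% within 10 kb, RNAP2 at the start for 34.8% and 13.8% multi-copy. A 5 kb promoter interval gave 30.7%, 143740 bp to a protein-coding start and 11.6% within 10 kb, and spans of all annotated genes gave 31.7%. Without multi-copy windows, an added alternative, the start distance was 141741 bp and RNAP2 at the start 43.4%. The regions left were 27.8% of the full list of 10634. That list still held all its 913 peaks with multi-copy windows, so this share is lowered by the removal itself. The other 80 of 110 values stayed within 1.5 times a count or within the interval of a share or median, also without the intervals from Atp5g3 to Lnp and from Mtx2 to Hnrnpa3. Of 228 motif values, 34 moved. The HOX13 type share was 0.544% in 150 bp windows and 1.04 to 1.28% in the other alternatives. The planned repeat-masked share was not run. No paired analysis was possible because there is a single library for each antibody, and nothing was tested.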
